A study of Capra hircus with 6 samples.

Results

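The COP9 signalosome is described here through the 9 genes of its subunits, GPS1, COPS2, COPS3, COPS4, COPS5, COPS6, COPS7A, COPS7B and COPS8, out of 27271 genes counted in goat intramuscular preadipocytes. The genes were found by name, each was listed once, and all 9 had reads in at least 1 library. The complex was chosen by the level of GPS1, which was lower in the Si-LIPG groups than in the NC groups in these same libraries. The GPS1 values are therefore a description and carry no test, and the other 8 subunits, members by name, are tested. The question was whether the lower level of GPS1 was shared by the rest of the complex. The paper names GPS1 as the gene most significantly upregulated, the opposite of the direction in these counts under their titles. This difference was not limited to GPS1. Of its 1695 called genes, the paper counts 1064 as upregulated. At the paper's thresholds, DESeq2 on these counts gave 1064 lower and 629 higher genes in the Si-LIPG groups. The cause of the opposite directions was not tested, and it bears on every direction given here.

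The COP9 signalosome is a protein complex that removes the ubiquitin-like protein NEDD8 from cullins, the scaffolds of the cullin-RING ubiquitin ligases. NEDD8 on a cullin keeps a ligase active, and its removal lets the ligase exchange the adaptor that chooses its substrate. COPS5 carries the metalloprotease that cuts NEDD8 off, COPS6 is its partner with a related fold and no catalytic activity, and GPS1, COPS2, COPS3, COPS4, COPS7A or COPS7B, and COPS8 form the scaffold through a shared PCI domain. COPS7A and COPS7B are paralogs that take the same place in the complex. The lid of the proteasome and the translation factor eIF3 are built from subunits of the same families.

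The cells came from the longissimus dorsi muscle of 3-day-old Jianzhou goats and were used at passage 3. NC groups (genotype WT, n = 3) received a negative control siRNA, Si-LIPG groups (genotype LIPG Knock down, n = 3) received an siRNA against LIPG, endothelial lipase, and both were kept in medium for adipose differentiation with oleic acid (50 μmol/L) for 48 h. The methods speak of biological replicates, but nothing says that the libraries came from separate animals or cultures, and p-values measure only the spread between these samples, which may be technical.

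Each library held between 36451898 and 52638817 reads, and only between 524776 and 1051230 of them were counted on genes. The share counted on genes was 0.997%, 1.41% and 1.53% in the NC groups and 1.80%, 2.63% and 2.88% in the Si-LIPG groups, without overlap, and no annotated feature was hit by 91.6% to 93.7% of the reads. The library kit marks strand, and the strand setting of the counting is not given in the sources used here. ND6, the mitochondrial mRNA coded on the strand opposite to ND5, had 28.1 to 44.2 times the counts per kb of ND5 in the NC groups and 14.8 to 24.7 times in the Si-LIPG groups, also without overlap. Whether the reads counted on a subunit came from its own strand was not tested. NC library 1 stood apart, with the lowest share on genes and a TMM factor (edgeR's scaling for composition) of 0.601 against 0.927 to 1.37 in the other libraries. Values that turn on it are given with and without it.

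LIPG itself had counts of 0, 2 and 0 in the NC groups and 0, 2 and 2 in the Si-LIPG groups, none above the 3 counts that a count of 0 allows, so neither a change of LIPG nor the labels could be checked by the silenced gene at this depth. Every direction given here rests on the group titles of the libraries. The labelled cell type was checked by its markers. COL1A1, a fibrillar collagen, had 2841 to 17392 counts per library, while PPARG and FABP4, which mark adipogenic cells, had at most 14 and 8 counts and DLK1, a preadipocyte marker, had 0 in every library. The preadipocyte and fibroblast markers (10 of 12 in the files, 8 with a count in every library) summed to between 18355 and 25709 CPM after TMM normalization (TMM CPM, the usual count of a gene relative to library depth) in the NC groups and between 26365 and 32668 in the Si-LIPG groups, without overlap. Muscle markers (7 of 8 in the files, none at 0 throughout) summed to between 364 and 470 in the NC groups and between 381 and 472 in the Si-LIPG groups. Most of the preadipocyte and fibroblast sum came from COL1A1 and COL1A2 (2716 to 17834 counts). Single genes lay closer, with 24 to 181 counts for PDGFRA, 28 to 162 for PDGFRB, 26 to 83 for THY1 and 18 to 358 for DCN. DES had 72 to 238 and MYH3 66 to 250, and the other muscle markers had at most 71 (MYOD1). Macrophage markers (all 4 in the files, PTPRC at 0) summed to between 23.6 and 48.6 and between 16.3 and 22.6, without overlap, and endothelial markers (all 4 in the files, CDH5 and KDR at 0) to at most 7.20. CD14, CD68 and CSF1R had only 1 to 14 counts per library, and the raw counts of each overlapped between the groups. The part of other cell types in the results below was not tested.

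GPS1 was lower in every Si-LIPG library than in every NC library, and no other subunit was. Of the 6 other subunits with enough reads to be tested, none passed an adjusted p under 0.05, and all 6 had a log2 fold change above 0. Of all tested genes, 6.51% passed and 58.4% lay above 0, so counts over 6 genes do not set these subunits apart. COPS4, COPS6 and COPS7A fell below 0 in some of the settings run. Of the 6, the one farthest from 0 was COPS5, the subunit with the protease. It had a mean of 7.87 ± 2.55 TMM CPM (SD, n = 3) in the NC groups and 33.0 ± 7.13 in the Si-LIPG groups. COPS3, COPS4, COPS6, COPS7A and COPS8 had log2 fold changes between 0.04 and 0.47.

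GPS1 (ENSCHIG00000026834), a scaffold subunit with a PCI domain, had counts of 502 (library 1), 449 (library 2) and 434 (library 3) in the NC groups and of 244, 176 and 240 in the Si-LIPG groups, in the same order, which is kept in what follows. The raw counts did not overlap, although more reads were counted on genes in every Si-LIPG library than in every NC library. In FPKM, which the authors scaled by gene length and reads on genes, GPS1 had 419, 327 and 270 in the NC groups (339 ± 75.1, SD, n = 3) and 124, 78.5 and 100.002 in the Si-LIPG groups (101 ± 22.6). The ratio of the means was 0.297. NC library 1 was the highest and the Si-LIPG libraries lay closer together.

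The size of the GPS1 difference depended on the scale, and its direction did not in any of the settings run. The log2 fold change (Si-LIPG over NC) was -2.39 with TMM, -1.75 with plain library sizes and -0.85 with every read in the files as the denominator. On the last scale GPS1 had 9.54, 10.5 and 9.42 CPM in the NC groups and 5.08, 4.71 and 6.58 in the Si-LIPG groups. The median log2 fold change of the 6574 tested genes moved by a like amount, from 0.16 to 0.71 and 1.58. Measured from that median, GPS1 lay at -2.55, -2.46 and -2.43. Without NC library 1 its log2 fold change after TMM normalization was -1.93. In these bulk libraries, fewer cells of a type and less RNA per cell cannot be told apart.

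**Figure D1:**
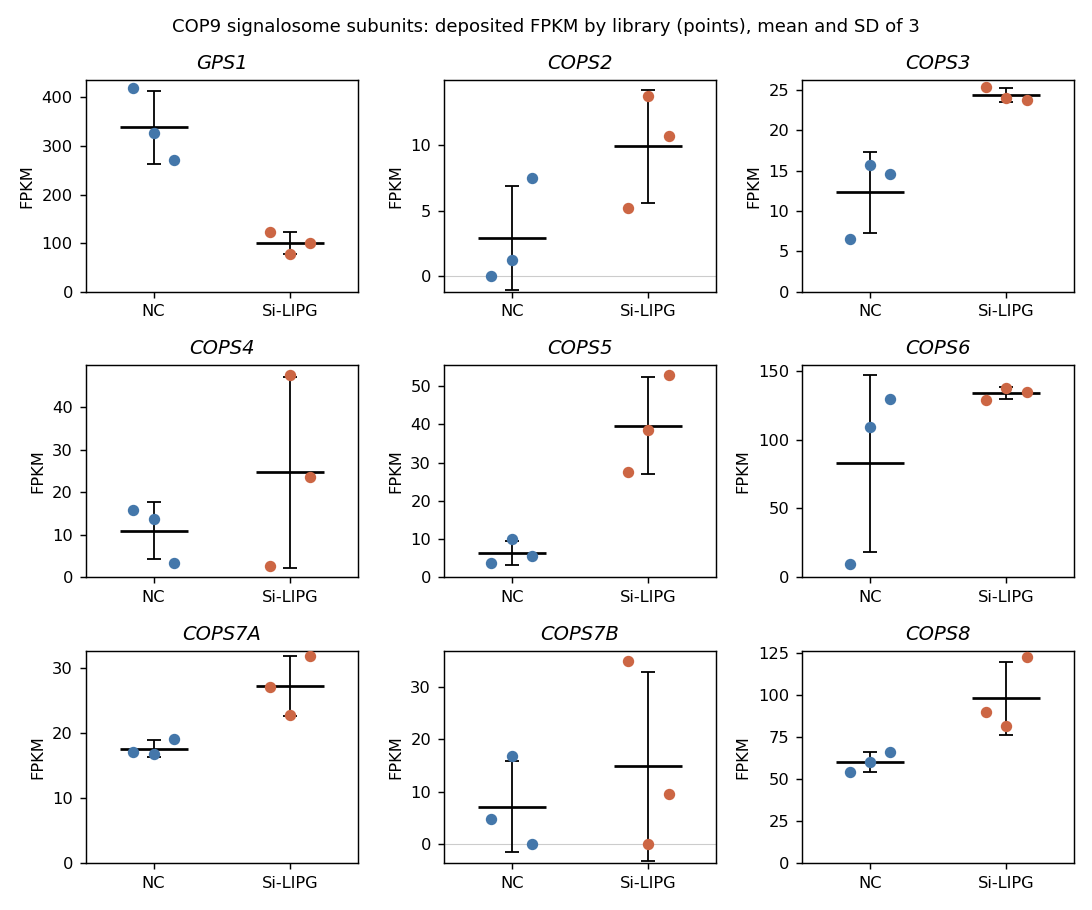
FPKM of the 9 COP9 signalosome subunits in the 3 NC libraries (blue) and the 3 Si-LIPG libraries (orange), each point 1 library, with the mean (line) and SD (bar) and a separate scale per gene. GPS1 lies between 270 and 419 in the NC groups and between 78.5 and 124 in the Si-LIPG groups, while COPS3, COPS5, COPS7A and COPS8 lie higher without overlap on this scale, which is not corrected for composition.

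COPS5 (ENSCHIG00000020229), the metalloprotease of the complex, was counted 2, 6 and 4 times in the NC groups and 24, 38 and 56 times in the Si-LIPG groups. The groups did not overlap on any scale, but the NC counts lie near the 3 counts that a count of 0 allows. In TMM CPM these are 6.48, 10.8 and 6.30 against 27.1, 31.0 and 40.9. The log2 fold change was 2.03 (SE 0.655, 95% interval 0.64 to 3.43), with an unadjusted p of 0.00728 and an adjusted p of 0.0766 by edgeR's quasi-likelihood test, so that it did not pass the threshold. Over the settings run its log2 fold change was between 1.86 and 3.50 and its adjusted p between 0.0462 and 0.389, the lowest with scaling to all reads, where it passed.

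COPS6 (ENSCHIG00000013561), the partner of COPS5, was counted 5, 65 and 90 times in the NC groups and 110, 133 and 140 times in the Si-LIPG groups. NC library 1 held only 5 of these reads, and in TMM CPM it had 16.2 against 117 and 142 in the other NC libraries, which lay among or above the Si-LIPG libraries at 124, 108 and 102. The log2 fold change was 0.23 (95% interval -0.82 to 1.28, edgeR adjusted p = 0.849), and without NC library 1 it was -0.24 (95% interval -0.87 to 0.40). The direction of COPS6 thus rested on that library.

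Of the scaffold subunits, COPS3 (ENSCHIG00000011762) was counted 8, 22 and 24 times in the NC groups and 51, 55 and 58 times in the Si-LIPG groups. In TMM CPM the groups did not overlap, with 25.9, 39.6 and 37.8 against 57.5, 44.8 and 42.4, but the nearest libraries were 39.6 and 42.4. The log2 fold change was 0.46 (95% interval -0.47 to 1.38, edgeR adjusted p = 0.621).

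COPS8 (ENSCHIG00000026994), the smallest of the scaffold subunits, was counted 22, 28 and 36 times in the NC groups and 60, 62 and 100 times in the Si-LIPG groups. Once scaled by TMM the groups covered the same range, with 71.3, 50.4 and 56.7 against 67.7, 50.5 and 73.0 TMM CPM. Its log2 fold change was 0.11 (95% interval -0.69 to 0.92, edgeR adjusted p = 0.908). COPS7A (ENSCHIG00000013096), the paralog of COPS7B, also overlapped, with 25.9, 16.2 and 18.9 TMM CPM in the NC groups and 23.7, 16.3 and 21.9 in the Si-LIPG groups. Its log2 fold change was 0.04 (95% interval -1.27 to 1.36, edgeR adjusted p = 0.981) and changed sign with DESeq2 size factors, at -0.0026.

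COPS4 (ENSCHIG00000014728), the scaffold subunit that senses the bound ligase, varied most between replicates among the tested subunits. It was counted 14, 14 and 4 times in the NC groups and 4, 79 and 42 times in the Si-LIPG groups, so that NC library 3 and Si-LIPG library 1 had the same count while Si-LIPG library 2 had the highest. Its biological coefficient of variation was 0.637, against 0.295 to 0.414 for the other tested subunits, GPS1 included. The log2 fold change was 0.47 (95% interval -1.24 to 2.19, edgeR adjusted p = 0.800), an interval that covers both a lower and a higher level, and it was between -0.44 and 1.08 when single libraries were left out.

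COPS2 and COPS7B did not pass the filter on low counts. COPS2 (ENSCHIG00000021490), a scaffold subunit that binds the cullin, was counted 0, 1 and 7 times in the NC groups and 6, 18 and 15 times in the Si-LIPG groups, and the count of 0 allows up to 4.29 FPKM in NC library 1. COPS7B (ENSCHIG00000009807), the paralog of COPS7A, was counted 2, 8 and 0 times in the NC groups and 24, 0 and 8 times in the Si-LIPG groups, and the counts of 0 allow up to 5.36 FPKM in NC library 3 and 3.84 FPKM in Si-LIPG library 2. These limits cover counting error only. Both genes overlapped between the groups. With no filter on low counts the log2 fold change was 1.21 for COPS2 (edgeR adjusted p = 0.679) and 0.72 for COPS7B (edgeR adjusted p = 0.785).

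Counted over the 6 tested subunits other than GPS1, 0 had an adjusted p under 0.05 with edgeR, against 6.51% of all tested genes (428 of 6574, 64 higher and 364 lower). At a fold change over 1.5 with an unadjusted p under 0.05, 1 of 6 was called, COPS5, against 20.7% of all tested genes, and DESeq2 called 0 of the 6 at an adjusted p under 0.05, against 8.08% of the 7363 genes to which it gave one. COPS3 and COPS5, 2 of 6, did not overlap between the groups in TMM CPM, against 28.7% of all tested genes. With scaling to all reads, which gave 750 higher and 0 lower genes at an adjusted p under 0.05, 1 of 6 was higher, COPS5 again, against 11.4%. On that scale 5 of 6 lay higher without overlap, all but COPS4, against 51.9%. With so few genes, none of these counts sets the rest of the complex apart from all tested genes, and GPS1, which chose the complex, is not among them.

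The median log2 fold change of the 6 subunits was 0.34, against 0.16 for all tested genes. Measured from the median of all tested genes, COPS7A, COPS8 and COPS6 lay at -0.12, -0.05 and 0.07, COPS3 and COPS4 at 0.30 and 0.31, and COPS5 at 1.87. With library sizes alone these distances were -0.09, -0.01, -0.04, 0.26, 0.47 and 1.87 in the same order, and with scaling to all reads -0.07, 0.02, -0.14, 0.21, 0.69 and 1.91. These scalings moved all subunits with the bulk of the genes. GPS1 stayed below the median, COPS5 above, and COPS6, COPS7A and COPS8 close to it. Over all settings run, the distance was between -0.36 and 0.57 for COPS6 and between -0.56 and 0.96 for COPS4. It was between -0.32 and 0.08 for COPS7A, and between -0.21 and 0.25 for COPS8. GPS1 stayed below the median and COPS5 above it in every setting.

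**Figure D2:**
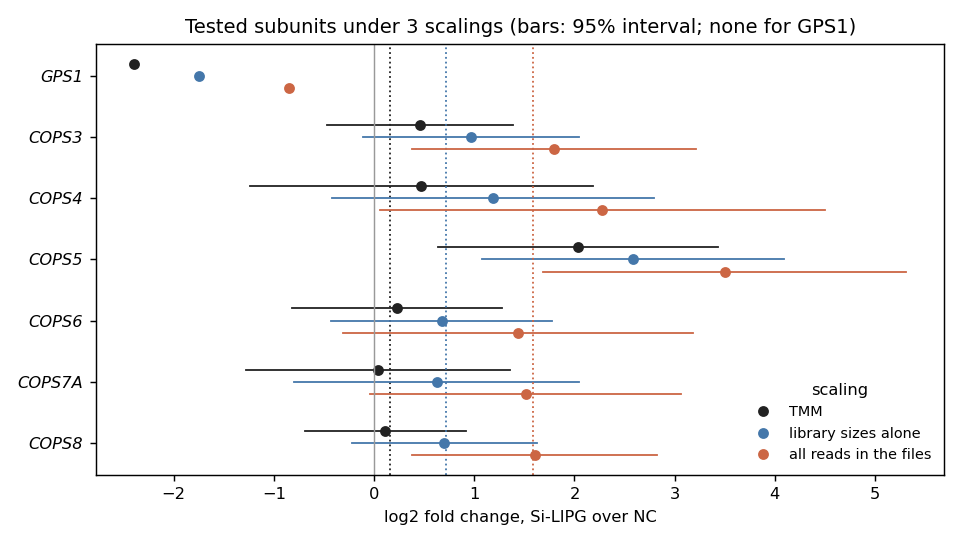
Change of the 7 tested subunits (horizontal axis, log2 of Si-LIPG over NC) under TMM normalization (black), library sizes alone (blue) and scaling to all reads (orange), with 95% intervals except for GPS1, and the median of all tested genes as a dotted line in the same colour. GPS1 lies left of 0 on each scale (-2.39, -1.75 and -0.85), COPS5 lies right of each median line, and the others have intervals that include the median of their scale.

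Levels of different subunits were compared in FPKM, per gene length, from reads whose strand was not tested. In the NC groups GPS1 was the highest with a median of 327, followed by COPS6 (109), COPS8 (60.1), COPS7A (17.0), COPS3 (14.6), COPS4 (13.8), COPS5 (5.66), COPS7B (4.79) and COPS2 (1.25). Of the neighbours in this order, GPS1 and COPS6, COPS8 and COPS7A, and COPS7A and COPS3 did not overlap, and the others did. In the Si-LIPG groups COPS6 came first (135), without overlap with GPS1 (100.002), which overlapped with COPS8 (89.6). COPS5 (38.5), which did not overlap with COPS8, came next, and COPS7A (27.1), COPS3 (24.0), COPS4 (23.7), COPS2 (10.7) and COPS7B (9.57) followed with overlapping ranges.

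The make-up of the complex in counted reads was described by shares within each library, which do not depend on the scaling between libraries. The strand of these reads was not tested, so the shares may not be those of the subunit mRNAs. GPS1 took 502 of 563 reads of the 9 subunits in NC library 1, a share of 89.2% (95% Wilson interval 86.3% to 91.5%, counting error only), and 74.6% (71.0% to 77.9%) and 71.0% (67.3% to 74.5%) in NC libraries 2 and 3. Its share was 44.9% (40.7% to 49.1%), 30.3% (26.7% to 34.1%) and 34.8% (31.4% to 38.5%) in Si-LIPG libraries 1, 2 and 3. The total over the 9 subunits was 563, 602 and 611 raw reads in the NC groups and 544, 581 and 689 in the Si-LIPG groups. These totals overlapped but are not scaled for depth. The Si-LIPG libraries had on average 1.58 times the reads on genes of the NC libraries. In TMM CPM the mean of GPS1 was 1040 in the NC groups and 198 in the Si-LIPG groups. The sum of the others had means of 251 and 332.

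Per kb of gene length, GPS1 made up 62.9% ± 14.1 (SD, n = 3) of the subunit counts in the NC groups and 21.3% ± 4.68 in the Si-LIPG groups. The share of COPS5 was 1.18% ± 0.518 and 8.33% ± 2.24, that of COPS8 was 11.2% ± 1.42 and 20.6% ± 3.07, and that of COPS6 was 15.4% ± 12.1 and 28.4% ± 2.30, with 1.82% in NC library 1. A share of the whole has to go up in the others when GPS1 goes down, so the shares were also taken over the 8 subunits without GPS1. On this base only COPS5 did not overlap, with 3.39%, 4.07% and 2.30% in the NC groups and 8.09%, 10.5% and 12.9% in the Si-LIPG groups. COPS3 kept to a narrow range, between 5.86% and 6.44% in the NC groups and between 5.77% and 7.42% in the Si-LIPG groups.

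The 8 subunits without GPS1 summed to 198, 276 and 279 TMM CPM in the NC groups (251 ± 45.9, SD, n = 3) and to 338, 330 and 328 in the Si-LIPG groups (332 ± 5.59), 1.32 times the NC mean. GPS1 had 8.23, 2.93 and 2.45 reads per read of the others in the NC groups and 0.813, 0.435 and 0.535 in the Si-LIPG groups. The log2 of this ratio differed by -2.76 between the groups (pooled SD 0.742), and by between -3.10 and -2.22 with 1 library left out at a time. It contains the GPS1 values by which the complex was chosen and has no test.

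**Figure D3:**
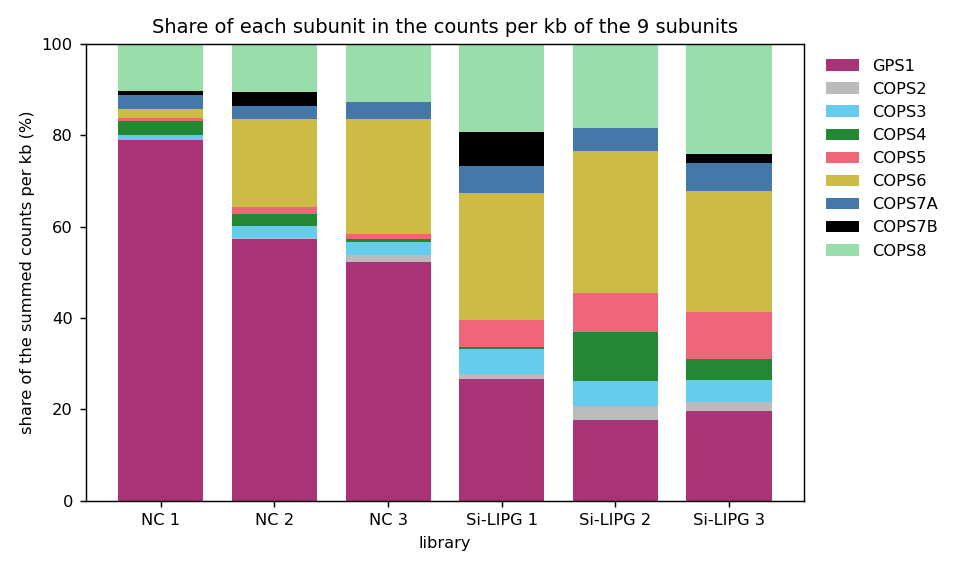
Share of each subunit in the summed counts per kb of the 9 subunits (vertical axis, percent), 1 bar per library, stacked from GPS1 at the foot to COPS8 at the top. GPS1 fills 52.4% to 78.9% of the NC bars and 17.7% to 26.6% of the Si-LIPG bars, and COPS6 is nearly missing from NC library 1 (1.82%).

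The profile of GPS1 over the 6 libraries was set against those of 1916 other tested genes, all with a mean of 50 counts or more, by the Euclidean distance between log2 TMM CPM centred on each gene. The nearest were ORC4, a subunit of the origin recognition complex (distance 0.436), RASSF7, a Ras association domain protein (0.542), the unnamed gene ENSCHIG00000023501 (0.563), CCDC85B, a coiled-coil protein (0.614), and RAB3A, a small GTPase of vesicle transport (0.629), while the median distance of all candidates was 3.35. ORC4, for instance, was counted 145, 132 and 159 times in the NC groups and 99, 57 and 73 times in the Si-LIPG groups. Of the other tested subunits, COPS7A (2.97) and COPS8 (3.08) lay somewhat nearer to GPS1 than that median, and COPS3 (3.71), COPS4 (4.42), COPS6 (4.98) and COPS5 (5.26) lay beyond it. COPS3, COPS4, COPS5 and COPS7A have mean counts under 50, below the minimum set for the candidates. As the likeness uses the same 6 libraries that chose GPS1, it is a description.

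The summed profile of the 8 other subunits was closest to the unnamed gene ENSCHIG00000013910 (distance 0.086), FBN1, the microfibril protein fibrillin (0.124), MMP2, a matrix metalloprotease (0.135), TUBA1B, an alpha tubulin (0.152), and SLC25A6, a mitochondrial ADP/ATP carrier (0.168), with a median of 1.13 over the candidates. FBN1 had a log2 fold change of 0.44 and SLC25A6 one of 0.38 after TMM normalization.

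**Figure D4:**
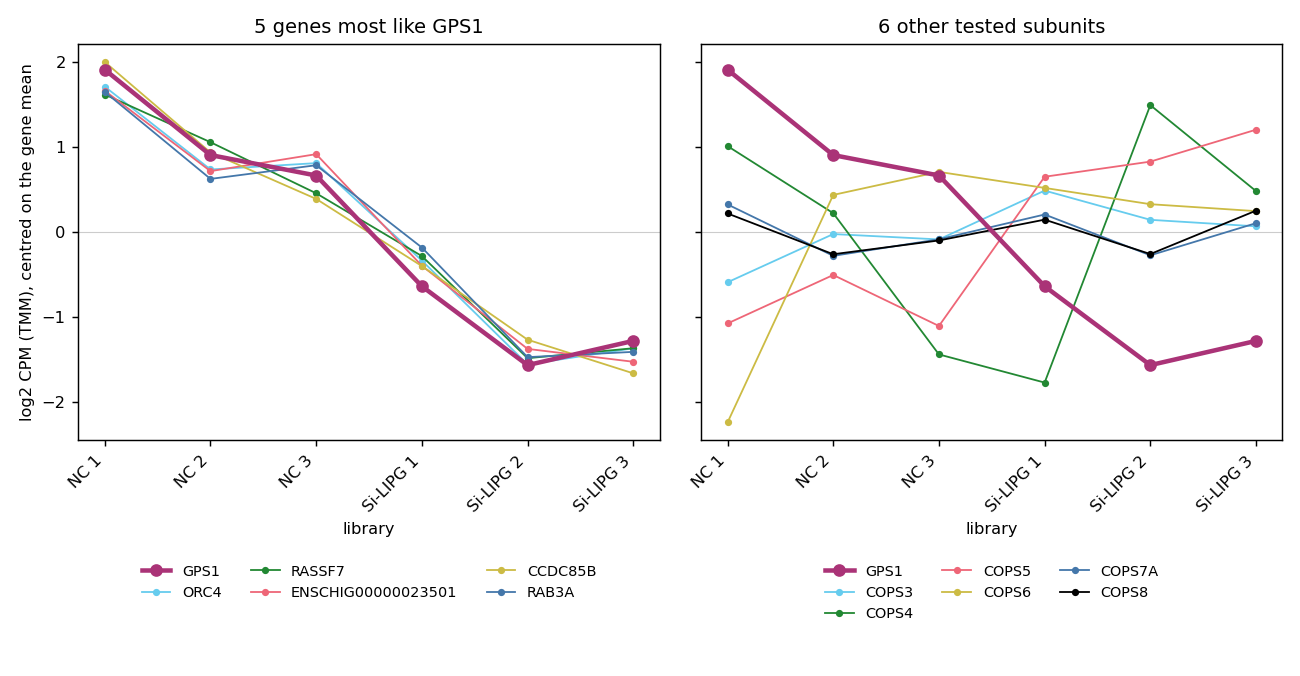
Log2 TMM CPM centred on each gene (vertical axis) in the 6 libraries, for GPS1 (thick line) with the 5 genes most like it (left) and with the 6 other tested subunits (right). Lines only join the points of a gene, since replicates have no order. The 5 genes follow GPS1 from above 0 in the NC groups to below 0 in the Si-LIPG groups, and none of the subunits does, with COPS6 at -2.24 in NC library 1.

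Neighbouring genes were looked up by name in RefSeq's table for ARS1.2, a goat assembly. GPS1 had DUS1L, a tRNA modifying enzyme, and RFNG, a glycosyltransferase that acts on Notch, overlapping or within 1 kb of it. DUS1L was counted only 8, 5 and 8 times in the NC groups and 8, 8 and 11 times in the Si-LIPG groups. RFNG was counted 11, 19 and 41 times in the NC groups and 31, 57 and 88 times in the Si-LIPG groups, with a log2 fold change of 0.10 (edgeR adjusted p = 0.933). In TMM CPM, DUS1L had 15.9 ± 8.92 (SD, n = 3) in the NC groups and 7.86 ± 1.26 in the Si-LIPG groups, with NC library 1 the highest at 25.9 and ranges that just overlapped, so its direction turned with the scaling. The counts of GPS1 were higher than those of both neighbours in every library.

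Of the other tested subunits, only COPS6 had a gene that near, MCM7, a subunit of the replicative helicase. MCM7 was counted 614, 538 and 746 times in the NC groups and 661, 620 and 654 times in the Si-LIPG groups and was lower after TMM normalization (log2 fold change -1.26, edgeR adjusted p = 0.0493), with higher counts than COPS6 in every library. In NC library 1, MCM7 was the lowest on the scale of all reads (11.7 CPM) and the highest in TMM CPM (1991), while COPS6 was the lowest on both. Of the untested subunits, COPS2 had GALK2 and COPS7B had PDE6D within 1 kb.

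A near neighbour was more frequent among all genes that were lower. Of 5196 tested genes found once in the annotation, 51.3% had a gene overlapping or within 1 kb and 15.9% had at least 2, as GPS1 has. Among the 258 of these that were lower at an adjusted p under 0.05 the shares were 82.9% and 33.3%, and among the 54 that were higher they were 37.0% and 5.56%. The median log2 fold change was 0.28 with no such neighbour, 0.085 with 1 and -0.11 with 2 or more. The annotation table used holds no strand, so reads of neighbouring genes on the other strand could not be set apart, and their part in the GPS1 and COPS6 counts was not tested.

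**Figure D5:**
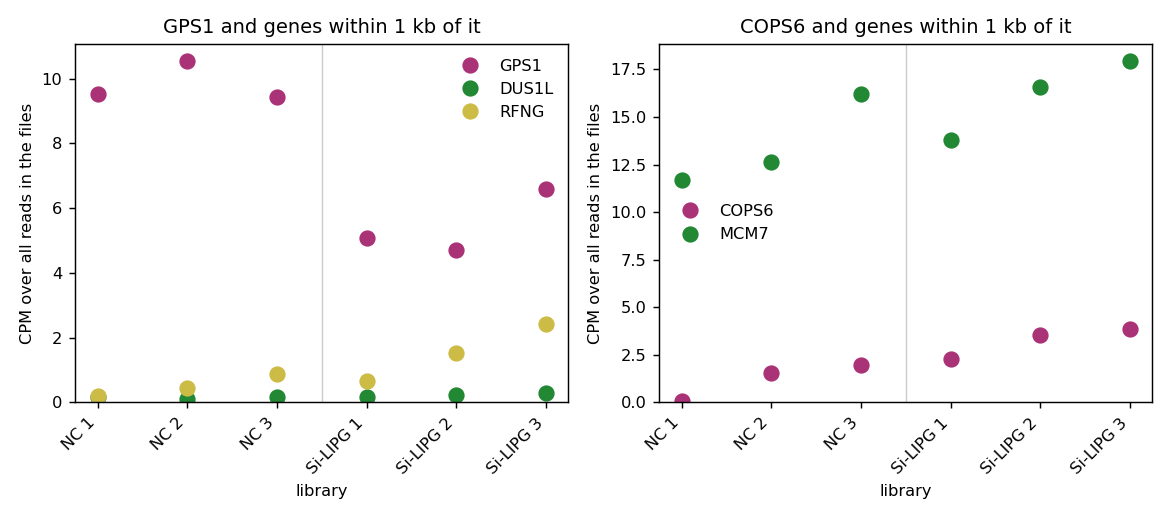
CPM over all reads in the files (vertical axis) for GPS1 with DUS1L and RFNG (left) and for COPS6 with MCM7 (right), 1 point per library, NC libraries left and Si-LIPG libraries right of the grey line. GPS1 goes from 9.42 to 10.5 in the NC groups to 4.71 to 6.58 in the Si-LIPG groups, RFNG and DUS1L are not lower on this scale, and MCM7 lies above COPS6 in all 6 libraries.

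The genes around the complex gave 1 call at an adjusted p under 0.05, which 6.51% of all tested genes passed. With so few genes, the calls do not set these lists apart from all tested genes. The list for NEDD8 conjugation holds NEDD8 itself and other genes as well as the enzymes that put NEDD8 on cullins. Of its 12 genes in the files 4 were tested, none passed in either direction, and the median log2 fold change was 0.49. NEDD8 itself was counted 3, 6 and 22 times in the NC groups and 48, 48 and 80 times in the Si-LIPG groups (log2 fold change 1.38, edgeR adjusted p = 0.158). UBE2M, the conjugating enzyme that hands NEDD8 to most cullins, had a log2 fold change of -1.34 (edgeR adjusted p = 0.115), and UBA3, a subunit of the activating enzyme, one of 0.42 (adjusted p = 0.799).

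Of the cullins, their adaptors and exchange factors, 15 of 20 in the files were tested, 0 were higher (0.974% of all tested genes) and 1 was lower (5.54% of all tested genes), shares that set the list apart in neither direction. The log2 fold change was above 0 for 11 and below 0 for 4 of the 15, against 58.4% above 0 among all tested genes. The called gene was DDB2, which brings damaged DNA to the CUL4 ligase, with 716, 639 and 513 counts in the NC groups and 529, 448 and 513 in the Si-LIPG groups. The raw counts overlapped, and the call depended on the scaling (log2 fold change -1.68 after TMM normalization, edgeR adjusted p = 0.0395, and -0.10 with scaling to all reads, adjusted p = 0.772). The cullins tested lay above 0, with 0.55 for CUL3, 0.73 for CUL4A, 0.72 for CUL7 and 0.75 for CUL9, as did the exchange factor CAND1 at 0.74, while CAND2, FBXW7 and KEAP1 lay at -0.09, -0.06 and -0.36, and none of these passed. SKP1 and ELOC, small adaptors that link a receptor to a cullin, had log2 fold changes of 0.27 and 0.58 (edgeR adjusted p of 0.857 and 0.663).

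Of the partners of the complex, USP15, a deubiquitinase bound to it, was counted 0, 4 and 12 times in the NC groups and 40, 46 and 28 times in the Si-LIPG groups (log2 fold change 1.80, edgeR adjusted p = 0.193). ITPK1, an inositol phosphate kinase, had a log2 fold change of -1.33 (edgeR adjusted p = 0.503), and COPS9 was not analysed here. Of the substrates of cullin-RING ligases, 9 of 12 were tested and 0 passed, against 6.51% of all tested genes, with a median of 0.29. HIF1A, the oxygen-regulated factor, had 0.87 (edgeR adjusted p = 0.139), CTNNB1, β-catenin, had 0.17 (0.832), and JUN, a subunit of AP-1, had 0.11 (0.896 after adjustment).

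The complexes built on the same plan also had no call, against 6.51% of all tested genes, and hold too few genes to be set apart by this. All 7 lid subunits of the proteasome found in the files were tested, 6 of 7 lay above 0 and the median was 0.65, with PSMD3 at -0.06, PSMD6 at 0.09 and PSMD8 at 0.65. Of eIF3, all 8 subunits in the files were tested, 6 of 8 lay above 0 and the median was 0.27, with EIF3A at -0.33, EIF3G at 0.11 and EIF3I at 0.43. Among all tested genes 3840 of 6574 lay above 0. EIF3A had the lowest log2 fold change of the lid and eIF3 subunits tested.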

How the data were processed

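Poly(A) RNA libraries were made with dUTP marking of the second cDNA strand. The authors deposited raw counts per gene for each library and FPKM values of the same genes, and their processing notes name fastp, HISAT2, SAMtools and HTSeq. The genome build, the annotation and the strand setting are not given in the sources used here. The 5 rows that name no gene (reads on no feature, 91.6% to 93.7% of a library, and others) entered neither library sizes nor tests, except when scaling to all reads. Gene lengths came from the deposited counts and FPKM values.

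Counts were filtered by filterByExpr, normalized by TMM and tested by the quasi-likelihood test of edgeR 4.0.16 (R 4.3.3) without covariates, with Benjamini-Hochberg adjustment over the 6574 tested genes, a procedure tested on simulated data. The log2 CPM values for likeness used a prior count of 2. DESeq2 1.42.0, which the methods name, and limma 3.58.1 on log2(FPKM + 1) and log2(FPKM + 0.1) were alternatives, with other scalings, other filters on low counts, a block for the replicate number and leaving out each library. Tables and figures were made with pandas 2.3.3, scipy 1.17.1 and matplotlib 3.10.9. Replicates differed beyond counting noise (chi-square 4.21 to 12.5 per degree of freedom).

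The members, gene lists and tests were chosen with earlier results of these data known. Named were all subunits, of each list the 3 tested genes with the most counts per kb and every gene with an adjusted p under 0.05, the genes next to a subunit, the 5 genes most like GPS1 or the sum of the others, and LIPG. The cullins CUL3, CUL4A, CUL7 and CUL9, and CAND1, CAND2, FBXW7 and KEAP1, were named outside this rule, after their values were seen. Sequences, and coordinates of another build, were not used here.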

Additional observations from a re-analysis of the deposited data

How the results depend on the processing

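With 3 libraries a group and under 3% of reads on genes, levels near 3 counts, as for COPS2, COPS7B and COPS5 in the NC groups, limit what could be seen. Of 91 alternative log2 fold changes of the tested subunits other than GPS1, 84 kept their direction and side of the threshold, and COPS5 passed with scaling to all reads (3.50). GPS1, which has no test, stayed below 0 in all 16 alternatives and moved to -1.75 (library sizes alone), -0.85 (all reads), -1.74 and -1.75 (limma). COPS7A reversed with DESeq2 size factors (-0.00263), and leaving out single libraries gave -0.11 to 0.21 for COPS7A, -0.24 to 0.65 for COPS6 and -0.44 to 1.08 for COPS4. Genes with an adjusted p under 0.05 numbered 428, and 100 with library sizes alone (93 higher, 7 lower), 750 with all reads, 714 with at least 10 counts in every sample, 0 with limma on either pseudocount (1912 and 1671 unadjusted) and 762 at an adjusted p under 0.1. They numbered 0 to 648 when single libraries were left out, with 0 without NC 1, NC 2, Si-LIPG 2 or Si-LIPG 3 (1307, 1616, 888 and 871 unadjusted), 525 without NC 3 and 648 without Si-LIPG 1. At a fold change over 1.5 with an unadjusted p under 0.05 the 1361 genes became 3032 with all reads, 2044 with no filter and 871 to 1692 with libraries left out. Of the subunits other than GPS1, 0 passed an adjusted p under 0.05, and 1 with all reads. At the unadjusted criterion 1 passed, 4 with all reads, 0 with 10 counts or more in every sample and 0 to 1 with libraries left out. The lists' 1 call became 0 with library sizes alone or limma, 7 with all reads, 3 with 10 counts or more in every sample and 0 to 2 with libraries left out. The median of the 6 subunits minus that of all genes, 0.18, was 0.0278 with limma on log2(FPKM + 0.1) and 0.0743 to 0.315 with libraries left out. The cause of these shifts was not tested.

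Whether replicate numbers pair the libraries could not be settled. Same-numbered libraries correlated at 0.210, 0.0639 and 0.105. NC 1 and NC 3 correlated best with their own number, and NC 2 correlated best with Si-LIPG 3 (0.0890). With a replicate block 925 genes and 2 list genes had an adjusted p under 0.05, and 0 of the subunits other than GPS1.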
